A study of Glycine max with 16 samples.

Results

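Both-antibody maturation regions are stretches of the soybean genome where LEAFY COTYLEDON1 (LEC1) was mapped at early and mid-maturation with one antibody, found again at early maturation with a second antibody, and not called at the earlier cotyledon stage. Embryos of Glycine max cultivar Williams 82 were profiled by chromatin immunoprecipitation and sequencing (ChIP-seq), which recovers and sequences the DNA that a protein is fixed to. Embryos were dissected at the cotyledon stage (COT, seeds of 2.5 to 3.5 mm), at early maturation (EM, seeds of 6 to 7 mm) and at mid-maturation (MM, seeds of 200 to 250 mg). An antibody against recombinant GmLEC1 was used at all 3 stages, and one against a GmLEC1 peptide at EM. Each of the 4 combinations had 2 ChIP and 2 input libraries, 16 in all, and all came from plants of the same cultivar with no mutant or treated group. Overlapping peaks of the 3 anti-recombinant lists were joined into 78759 merged regions. Of these, 11416 (14.5%) held an EM and an MM peak and no COT peak, and 6715 (8.53% of all merged regions) were also overlapped by at least 1 bp of a peptide peak. These 6715 are the both-antibody maturation regions, and the remaining 4701 are called single-antibody maturation regions here. The 35935 regions with peaks at COT, EM and MM are called all-stage regions, of which 32050 held a peptide peak.

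LEC1 is a B subunit of nuclear factor Y, a trimeric complex whose A subunit reads the CCAAT box in plant and animal promoters. In plant embryos LEC1 is a master regulator. It acts early in embryo formation and later in the maturation programme, when cotyledon cells store protein and oil and acquire desiccation tolerance. In soybean it is known to act at maturation together with the seed transcription factors ABI3, AREB3 and bZIP67. The cotyledon stage precedes seed filling, early maturation is its onset and mid-maturation its main phase. A region called at EM and MM but not at COT is therefore one that the peak lists place in the maturation period.

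Membership was set by the peak lists themselves, so the number of regions, their peak widths and their scores describe the choice and were not tested. Each stage and antibody is represented by 1 list, so no value has a spread between biological replicates, and stage, experiment and depth cannot be told apart. Reads per library are not known from these lists. A region with no COT peak is one that was not called at COT at an unknown depth, and the absence of LEC1 there was not shown. Peaks are located in bins of 50 bp on the Gmax275 build, with positions counted from 1. No genome sequence or gene annotation of that build was used, so regions are named by position and not by gene.

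The strongest both-antibody maturation regions were wide and closely aligned in all 3 lists. Strength is given as place, the rank of a region's best peak by score within its own list, with 1 the highest. Over the 55140 EM, 64146 MM and 49566 peptide peaks, places are also written as a percent of the list. Regions were ordered by the poorest of their 3 percentages. The first 10 were 550 to 750 bp wide, with a median of 650 bp. Their EM peaks stood between 0.268 and 8.27% of the list, their MM peaks between 0.842 and 6.59%, and their peptide peaks between 1.37 and 7.43%. The nearest COT peak was 250 to 43200 bp away.

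The first of these lay on chromosome 5 at 24777901 to 24778600. Its peaks ranked 1175 (EM), 1221 (MM) and 814 (peptide), and no COT peak came closer than 31150 bp. The second, on chromosome 3 at 1665501 to 1666150, ranked 148 (EM), 1608 (MM) and 741 (peptide). Its EM and peptide peaks were identical at 1665501 to 1666100, and the MM peak was 50 bp wider. On chromosome 9, the region at 46486851 to 46487500 held an EM and an MM peak with identical ends, at places 723 and 2777, and a peptide peak at place 777. These 3 regions were the ones that stood within the best 5% of all 3 lists.

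The regions differed in which list ranked them best. On chromosome 7 at 17420701 to 17421300, the MM peak took place 540 and was 600 bp wide, while the EM peak took place 3220 and was 450 bp wide. The peptide peak there, at place 681, was 550 bp wide. By contrast, the region on chromosome 6 at 16966401 to 16967150 ranked 240 (EM), 2702 (MM) and 3467 (peptide). The region on chromosome 10 at 3258951 to 3259600 ranked best with the peptide antibody, at place 1115, against 3482 at EM and 3558 at MM. The chromosome 13 region at 23668551 to 23669200 likewise ranked 1057 (peptide), 1623 (EM) and 4227 (MM).

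**Figure D1:**
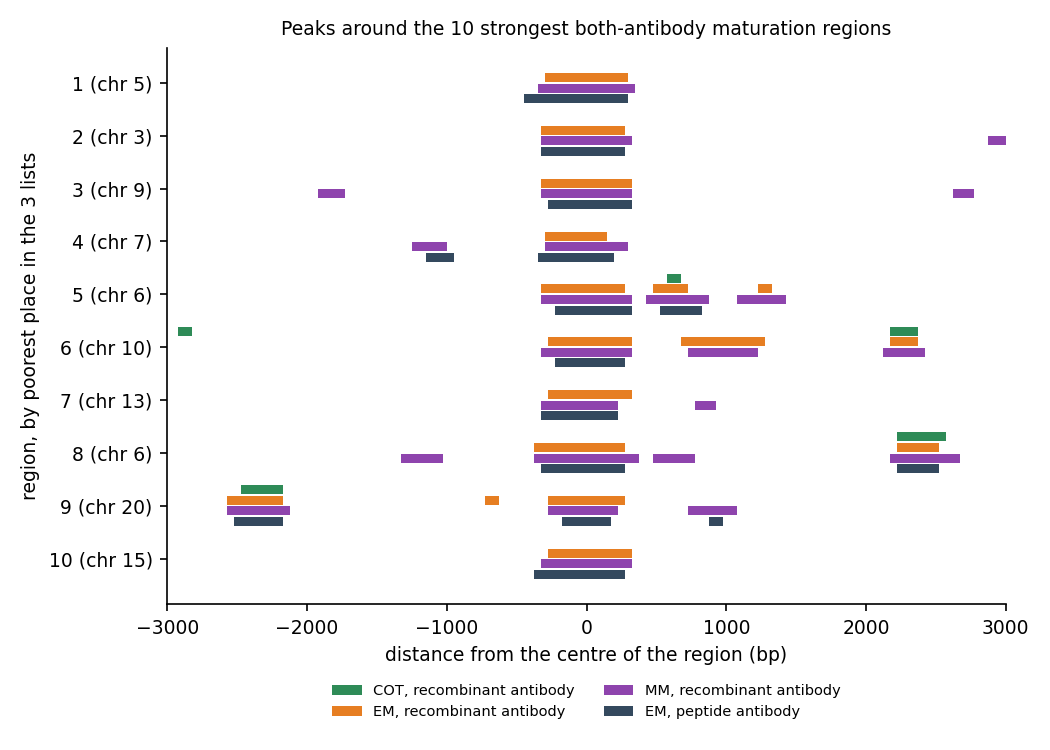
Peak intervals of the 4 lists (colours) within 3000 bp of the centre of each of the 10 strongest both-antibody maturation regions; the horizontal axis is distance in bp and each row is a region. EM, MM and peptide peaks are stacked at the centre, and COT peaks appear in the window beside 4 of the regions and in none of the centres.

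The other 3 regions also had close EM, MM and peptide peaks. On chromosome 6, the region at 12668651 to 12669300 had EM, MM and peptide peaks at places 995, 3859 and 2696, with a COT peak 250 bp away in a neighbouring all-stage region. The region at 92301 to 92850 of chromosome 20 lay 0.193% along the chromosome, with places 1027, 1622 and 3682. The last, on chromosome 15 at 12504501 to 12505150, had places 4559, 2185 and 2636 and no COT peak within 15750 bp. The map of peaks around these 10 regions shows that several had further peaks of the maturation lists within 3000 bp.

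Most both-antibody maturation regions were much weaker than these. In the EM list 77 of the 6715 had a peak in the best 10%, beside 10.1% of all regions with an EM peak. At MM the number was 201, beside 10.1% of all regions with an MM peak, and in the peptide list it was 57, beside 10.8% of all regions with a peptide peak. All 3 peaks were in the best 10% of their lists for 15 regions and in the best 20% for 96. Among all 38765 regions with EM, MM and peptide peaks, 6.98% and 16.9% met those limits. The higher-scoring 50% of all 3 lists held 1076 of the regions (16.0%), beside 48.7% of all regions with the 3 peaks. In the lower-scoring 50% of every list were 2391 (35.6%), a count whose share over all regions with the 3 peaks was not computed. The median place was 61.1% of the EM list, 49.7% of the MM list and 63.3% of the peptide list. For all-stage regions with a peptide peak the medians were 32.3, 28.4 and 34.2%. Single-antibody maturation regions stood lower, at 72.3% of the EM list and 66.02% of the MM list. On 20 of 20 chromosomes the both-antibody regions had better median places than the single-antibody ones in both lists.

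**Figure D2:**
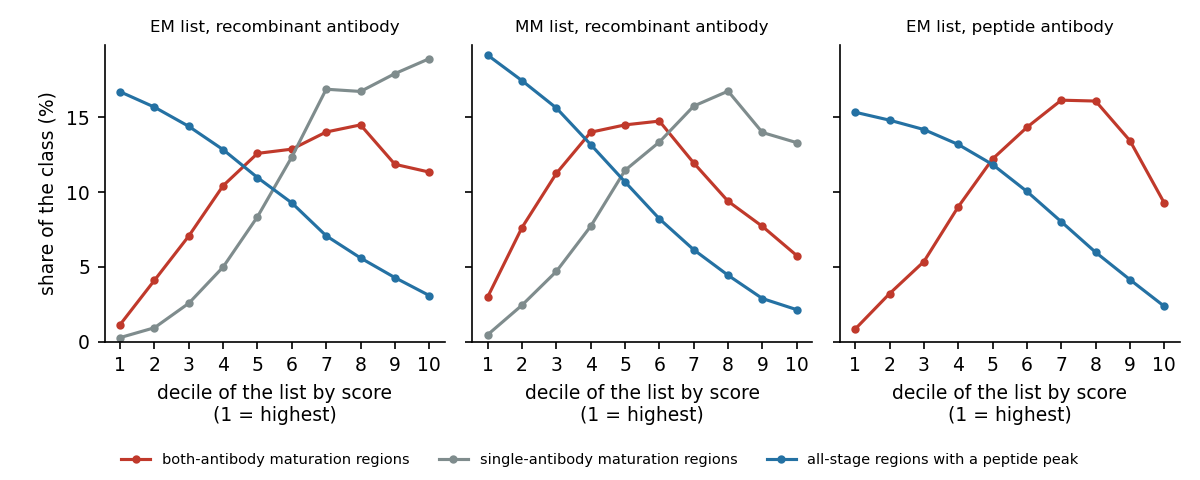
Share of each class of regions (vertical axis, %) by decile of the EM, MM and peptide lists (horizontal axis, 1 for the highest scores). Both-antibody maturation regions are most frequent in the middle and lower deciles, all-stage regions with a peptide peak in the first decile, and single-antibody regions in the lower deciles of the EM and MM lists.

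The 96 regions in the best 20% of all 3 lists were spread over 20 chromosomes. Chromosome 15 had the most, with 9, and no other chromosome had more than 7. Their median width was 550 bp. A COT peak lay within 1 kb of 15 of them (15.6%), beside 26.1% of all regions without a COT peak. In the chromosome centres, the part between 25 and 75% of the length, were 23 (24.0%), near the 21.8% of all merged regions. The MM peak was wider than the EM peak in 60, narrower in 19 and equally wide in 17, beside 51.0% wider and 28.9% narrower among all regions with both peaks.

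The share of regions with no COT peak was higher among weaker regions. Regions with EM, MM and peptide peaks were grouped by their poorest place, and 17.3% of all of them had no COT peak. In the best 10% that held for 15 of 2704 regions (0.555%, exact binomial 95% interval 0.311 to 0.913). Between 20 and 30% it was 181 of 4033 (4.49%), between 40 and 50% it was 482 of 4133 (11.7%), and between 60 and 70% it was 937 of 4090 (22.9%). In the lowest decile it was 1492 of 3649 (40.9%, 39.3 to 42.5). Intervals here and below cover counting error only, and neighbouring regions are not independent. Score and absence at COT thus moved together across the regions, and the part of the score in the missing COT peaks was not tested.

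Weaker regions were also narrower. The 15 regions with a poorest place in the best 10% had a median merged width of 650 bp, and the 1492 in the lowest decile one of 300 bp. Their median EM peak went from 600 to 150 bp, their MM peak from 650 to 250 bp and their peptide peak from 550 to 200 bp. Over all both-antibody maturation regions the median width was 350 bp, with the percentiles 10 and 90 at 250 and 550 bp and a full range of 100 to 1250 bp. Single-antibody regions had a median of 300 bp and all-stage regions with a peptide peak one of 500 bp. On each of the 20 chromosomes the median of the both-antibody regions was 350 bp, below that of the all-stage regions and above that of the single-antibody regions.

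**Figure D3:**
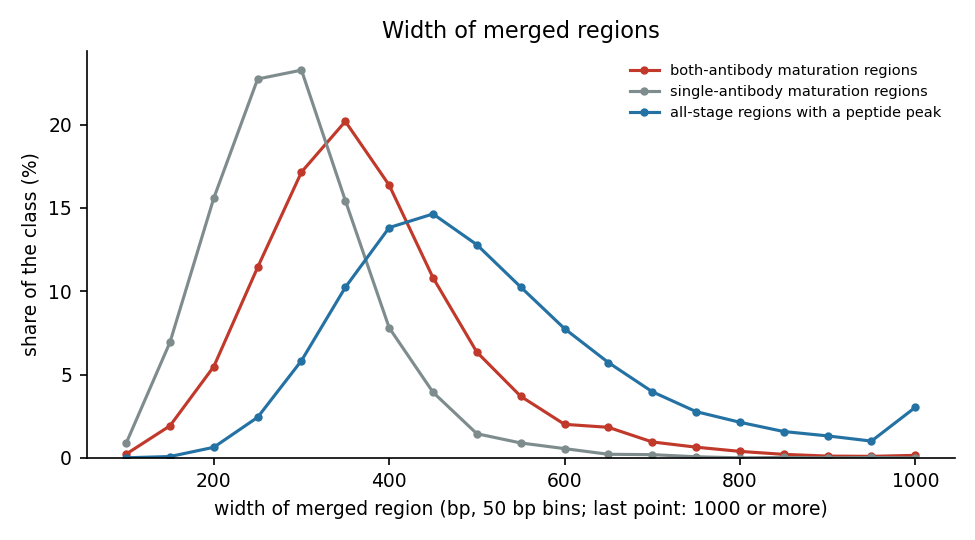
Share of each class (vertical axis, %) by width of the merged region (horizontal axis, bp, in steps of 50 bp, with all regions of 1000 bp or more in the last point). The curve of both-antibody maturation regions peaks at 350 bp, between that of single-antibody regions at 300 bp and that of all-stage regions at 450 bp.

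The widest region, on chromosome 9 at 1526801 to 1528050, measured 1250 bp and held 1 MM peak over its whole length, 2 EM peaks of 500 bp in sum and 2 peptide peaks of 650 bp in sum. A region of the same width on chromosome 14, at 34317901 to 34319150, had single peaks of 900 bp at EM, 1250 bp at MM and 1000 bp with the peptide antibody. It lay 59750 bp from the nearest COT peak. On chromosome 2 at 2834851 to 2836000 and on chromosome 18 at 6567651 to 6568800, MM peaks of 1150 bp stood over EM peaks of 300 and 350 bp and peptide peaks of 450 and 200 bp. The reverse was seen on chromosome 17 at 5769351 to 5770450, where 1 EM peak of 1050 bp faced 2 MM peaks of 450 bp in sum, with a peptide peak of 900 bp. Wide regions were thus of several kinds, with the width coming from MM, from EM or from all 3 lists.

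Most regions had a simple structure. In 6602 (98.3%) there was 1 EM, 1 MM and 1 peptide peak. A second EM peak was present in 53, a second MM peak in 18 and a second peptide peak in 54, and no region had more than 2 peaks of a list. The region with the most EM and MM peaks, on chromosome 10 at 9258551 to 9259500, had 2 of each. In 2 others, on chromosome 1 at 11707751 to 11708500 and at 27024951 to 27025850, 1 EM and 1 peptide peak faced 2 MM peaks. Single peaks were also the rule over all merged regions, where 55140 EM peaks lay in 54426 regions and 64146 MM peaks in 63550. The share with 1 peak of each list was not computed for other classes.

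The 3 lists placed the peak midpoints of a region within about 1 bin of each other. The rule requires the peaks to share a merged region, which bounds these distances, and other classes of regions were not measured. MM and EM midpoints were a median of 25 bp apart, and 95.3% were within 100 bp. Peptide and EM midpoints were 50 bp apart (90.7% within 100 bp), and peptide and MM midpoints 25 bp (93.8%). There was no side preference, with the MM midpoint to the right of the EM midpoint in 2628 regions, to the left in 2580 and at the same base in 1507. The farthest MM midpoint was 350 bp off the EM midpoint, and the farthest peptide midpoint 600 bp. Of the 6602 regions with single peaks, the EM peak lay inside the MM peak in 4298 (65.1%), the MM peak inside the EM peak in 1727 (26.2%), with 560 identical pairs counted in both. All 3 peaks had the same ends in 57. The peptide peak stayed inside the merged region in 4980 (75.4%). In 105 of the 6715 regions the peptide peak met the MM part alone and no EM peak.

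MM peaks were wider than EM peaks in most both-antibody maturation regions. The MM peak was wider in 4230 (63.0%), as wide in 1105 (16.5%) and narrower in 1380 (20.6%), beside 51.0% wider and 28.9% narrower among all 47351 regions with both peaks. In all-stage regions with a peptide peak 48.5% had the wider peak at MM, and in single-antibody regions 57.6%. The both-antibody share was above the all-stage share on 20 of 20 chromosomes and above the single-antibody share on 15. By 200 bp or more, MM was wider in 957 regions (14.3%, beside 9.47% of all regions with both peaks) and EM in 158 (2.35%, beside 3.12%).

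The excess of wide MM peaks depended on how regions were matched. At the same decile of the MM list it was large in the upper deciles. In the first decile 80.1% of the both-antibody regions had the wider peak at MM against 50.3% of the all-stage regions, and in the fifth 71.6 against 50.2%. At the same decile of the EM list it was smaller, with 55.2 against 47.3% in the fifth decile and 76.3 against 75.05% in the ninth. In the lowest decile of the EM list the shares were 87.5 and 87.3%. Widths belong to the lists that chose the regions, and no test of these shares was made.

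Peptide peaks were about as wide as EM peaks. They were wider in 2599 regions (38.7%, beside 36.5% of all regions with both), equal in 1169 (17.4%) and narrower in 2947 (43.9%). A median of 71.4% of the merged region was covered by peptide peaks, 80.0% by EM peaks and 100% by MM peaks.

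The scores of the 3 lists were less alike in both-antibody maturation regions than in all-stage regions. Across the 6715 regions Spearman's rho was 0.483 between EM and MM, 0.449 between EM and peptide, and 0.446 between MM and peptide. Across the 32050 all-stage regions with a peptide peak it was 0.754, 0.716 and 0.763. These are descriptions across regions. The both-antibody regions hold fewer high places, as given above, and the part of that in the lower rho was not tested.

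The presence of a peptide peak and the absence of a COT peak both belong to the rule that chose the regions, so the shares that follow are a description of the 4 lists, with no test. A peptide peak was present on 58.8% of the 11416 maturation regions (exact binomial 95% interval 57.9 to 59.7), 89.2% of the all-stage regions (88.9 to 89.5) and 58.7% of all merged regions. The share for maturation regions was thus near that of all merged regions together, which include regions called at 1 stage. It was below the 81.9% of all 47351 regions with EM and MM peaks. Of regions called at 1 stage, 14.2% at COT, 19.5% at EM and 19.6% at MM had a peptide peak, and for regions missing 1 stage the shares were 38.9% (no MM) and 49.6% (no EM). Across chromosomes the share for maturation regions ran from 54.2% on chromosome 16 to 61.9% on chromosome 19, with an SD of 2.03 percentage points over 20 chromosomes. It was below the all-stage share on 20 of 20, where the latter ran from 87.0 to 90.7%.

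The shares also differed between regions of the same decile of score. Regions were not matched on width, here or below, and the part of width in these differences was not tested. In the fifth decile of the EM list, for example, regions with a peptide peak differed in median EM width. It was 300 bp without and 350 bp with a COT peak. In the first decile of the EM list, 77 of 90 maturation regions (85.6%, 76.6 to 92.1) had a peptide peak, against 98.8% of 5423 all-stage regions. In the fifth decile it was 68.3% of 1239 against 87.8% of 4009, and in the lowest decile 46.1% of 1652 against 69.1% of 1435. The difference was 10.9 to 25.5 percentage points over the 10 deciles. Matched on the MM list it was 9.35 to 26.4 points, with 201 of 223 maturation regions (90.1%) against 99.5% in the first decile and 38.2 against 59.2% in the lowest. From the third decile of the EM list on, the maturation share was lower on 20 of 20 chromosomes. In the first decile, with few maturation regions per chromosome, it was lower on 9.

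Regions were then matched on both lists at once. Of the combinations of EM decile and MM decile, 75 held at least 20 maturation and 20 all-stage regions, and together they held 11276 of the maturation regions. The peptide share of the maturation regions was the lower in 75 of 75. The median difference was 19.6 percentage points, with a range of 2.94 to 37.5. Counting a peptide peak only where it overlapped an EM peak, a count added after the values were seen, gave a median difference of 19.4 points. The 75 combinations come from the same 4 lists, are no replicates and support no inference.

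**Figure D4:**
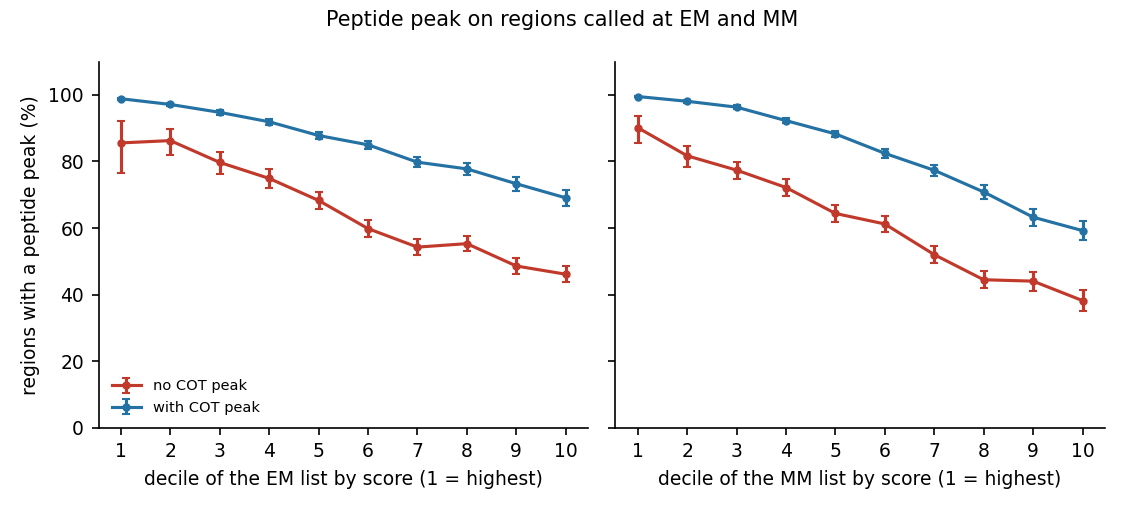
Share of regions with a peptide peak (vertical axis, %) by decile of the EM list (left) and of the MM list (right), 1 for the highest scores, for regions with EM and MM peaks with and without a COT peak; bars are exact binomial 95% intervals and cover counting error only. The regions without a COT peak are lower in every decile of both lists, for example 68.3 against 87.8% in the fifth decile of the EM list.

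COT peaks were near to many of the regions that they did not touch. The median distance from a both-antibody maturation region to the nearest COT peak was 2950 bp. A COT peak was within 100 bp of 75 regions, within 500 bp of 795 and within 10 kb of 5505 (82.0%). On chromosomes, 1615 of 6673 (24.2%) had one within 1 kb, beside 26.1% of all regions without a COT peak and 25.4% of single-antibody maturation regions. Counting scaffolds, 1625 regions had a COT peak within 1 kb. For 1205 of them (74.2%) that peak belonged to an all-stage region, at a median place of 38.8% of the COT list. For 248 (15.3%) it belonged to a region called at COT alone, at a median of 80.6%. Among all merged regions with a COT peak, 35935 were all-stage and 8134 were called at COT alone. Another 4234 had COT and MM peaks and 2572 had COT and EM peaks. A COT peak anywhere was thus most often in an all-stage region.

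The rule for COT was an overlap of 1 bp, and 15 regions lay directly against a COT peak. The strongest of these was on chromosome 16 at 1507901 to 1508450, which ranked 32767 (EM), 34408 (MM) and 28711 (peptide). Those at 54549651 to 54550100 of chromosome 18 and at 2196751 to 2197100 of chromosome 20 had EM places of 36536 and 38147. Just outside the rule, 50 all-stage regions with a peptide peak shared only 50 bp with their COT peak. They included chromosome 2 at 37254901 to 37255450, where a COT peak of place 49896 covered the left edge, and the other peaks ranked 19489 (EM), 26824 (MM) and 22819 (peptide). Next in the same order came 8508601 to 8509350 of chromosome 11, with COT place 35144, and 4457651 to 4458300 of chromosome 1, with COT place 39506. At the limit for the peptide antibody, 57 regions had 50 bp of a peptide peak, with a median EM place of 84.7%, and 24 single-antibody regions had a peptide peak that touched without overlap, with a median of 81.9%.

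At the other extreme, the 5 regions on chromosomes that were farthest from any COT peak were all in the middle part of a chromosome. They are the top of a ranking by distance and no separate group. A COT peak was within 100000 bp of 98.6% of the both-antibody maturation regions, and the positions of the others beyond that distance were not summarised. On chromosome 6 at 26602051 to 26602450 the nearest COT peak was 557300 bp away, and the peaks ranked 49059 (EM), 37534 (MM) and 36420 (peptide). The region at 31526801 to 31527150 of the same chromosome was 531950 bp from one. On chromosome 20 at 26914801 to 26915350, 465250 bp from a COT peak, the MM peak took place 4185 and the peptide peak place 16298, while the EM peak took place 31518. The last of the 5 by distance were 14425101 to 14425450 of chromosome 5 and 22308001 to 22308400 of chromosome 19. These 5 lay 34.2 to 61.4% along their chromosomes.

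Along the chromosomes, both-antibody maturation regions followed the distribution of all merged regions. Of the 6673 on chromosomes, 22.4% were in the centres, beside 21.8% of all merged regions, and 67.4% in the outer 20% at either end, beside 68.3%. They made up 8.53% of all merged regions, with a range over chromosomes from 6.93% on chromosome 17 to 9.77% on chromosome 18 (SD 0.621 percentage points, 20 chromosomes). Their number ran from 237 on chromosome 16 to 449 on chromosome 8, and their density from 5.72 per Mb on chromosome 1 to 9.60 on chromosome 13.

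**Figure D5:**
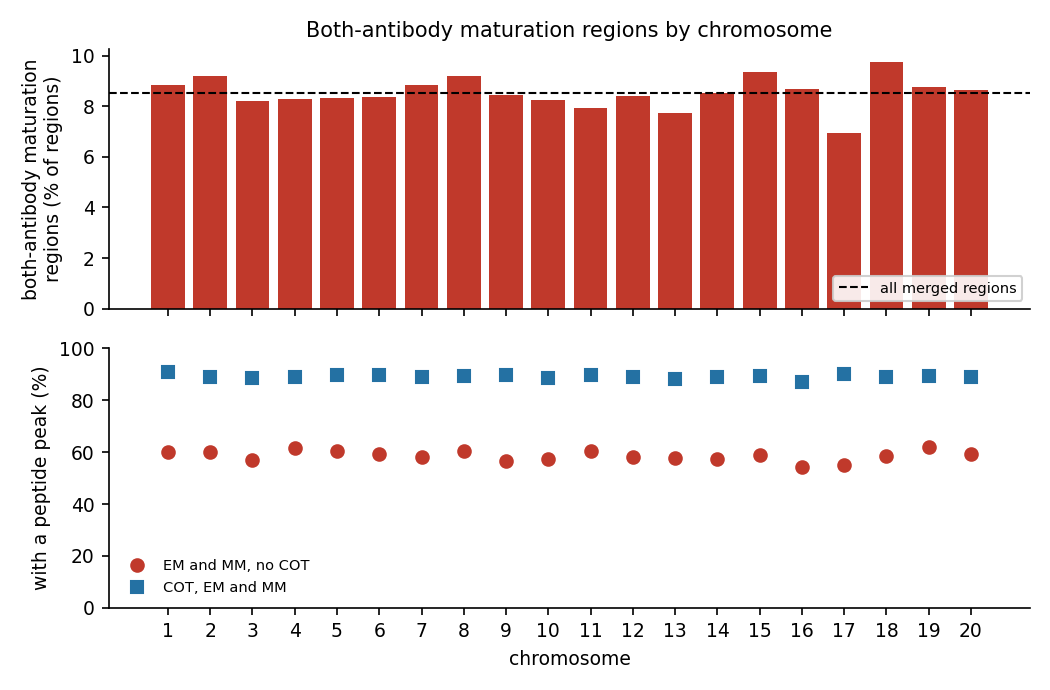
Upper panel, both-antibody maturation regions as a percent of the merged regions of each chromosome, with the percent over the genome as a dashed line (8.53%); lower panel, percent of maturation regions and of all-stage regions with a peptide peak. Chromosome 17 is the lowest bar (6.93%) and chromosome 18 the highest (9.77%), and in the lower panel the classes are apart on all 20 chromosomes.

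Within chromosomes the share varied more. In windows of 1 Mb, 480 held at least 50 merged regions, and the share of both-antibody maturation regions there had a median of 8.19%, with the percentiles 5 and 95 at 4.66 and 13.2%. The highest share was on chromosome 18 between 7000001 and 8000000, with 20 of 114 regions (17.5%), and the neighbouring window from 6000001 to 7000000 had 18 of 115 (15.7%). Next came the window of chromosome 15 from 47000001, with 11 of 64 (17.2%), and that of chromosome 8 from 42000001, with 17 of 107 (15.9%). The largest number was 28 of 208 on chromosome 2 between 2000001 and 3000000. No such region was found among 66 merged regions on chromosome 12 between 11000001 and 12000000, or among 52 on chromosome 17 between 34000001 and 35000000. At the start of chromosome 17, 3 of 186 (1.61%) qualified. Windows hold few of these regions, and none was tested against the spread of counting.

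Neighbouring regions were close, as for other regions. Another merged region lay within 1 kb of 41.1%, beside 42.1% of all merged regions, and the median distance was 1400 bp against 1350 bp. The nearest neighbour was an all-stage region for 2897 (43.2%), beside 45.7% of all merged regions. It was another both-antibody maturation region for 728 (10.8%). Such a neighbour was nearest for 9.64% of single-antibody maturation regions, 8.53% of all merged regions and 8.05% of all-stage regions with a peptide peak. Runs of consecutive both-antibody maturation regions, with no other region between, numbered 531 of length 2, 58 of length 3 and 10 of length 4. Another 5439 regions stood alone. The number of runs that a share of 8.53% would give in random order was not computed. These counts therefore do not tell whether the regions cluster. The most compact run of 4 spanned 3950 bp on chromosome 8, at 46003501 to 46007450. Others spanned 4050 bp on chromosome 18 at 29246501 to 29250550 and 5000 bp on chromosome 9 at 45871201 to 45876200. Chromosome 18 had 3 of the 10 runs of 4, including one at 7687701 to 7731800 in its richest window. Runs and windows were named for their size after the values were seen.

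Unplaced scaffolds held 42 of the regions among 399 merged regions (10.5%, beside 8.53% of all merged regions). Scaffold 21 had 19 among 155 (12.3%), scaffold 28 had 11 among 52 (21.2%) and scaffold 32 had 4 among 40 (10.0%). Another 8 scaffolds had 1 each, and the remainder of the 41 scaffolds with merged regions had 0.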

How the data were processed

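ChIP and input libraries of soybean embryos (2 biological replicates in each of 8 groups) are represented by 4 deposited peak lists, of 49566 to 64146 peaks. Each peak has a score computed by the authors, of unknown scale, so the deposited score was used only to rank peaks within a list. Per the submitters' processing notes, Bowtie 0.12.7 and SAMtools 0.1.19 were used. For the peak caller, its threshold, input use and replicate pooling, no statement is given in the sources used here. The depth per sample is unknown. The build Gmax275 is from the peak names. Chromatin was sheared to 100 to 500 bp and libraries were amplified with 15 PCR cycles, per the labels' protocols, and duplicate fragments or the shear size could affect which peaks were called and how wide they are.

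Each end was taken to be inclusive, which puts all peaks on 50 bp bins. Peaks of the 3 stages that overlapped by at least 1 bp were merged with Python 3.11.15, numpy 2.4.6 and pandas 2.3.3, and the best-scoring peak of each list stood for a region. Distances run from edge to edge, and the last peak end stands for the chromosome length. Exact binomial (Clopper-Pearson) 95% intervals are from scipy 1.17.1. The overlap code was tested on simulated data and equalled brute force in 5 of 5 draws. The regions, classes and summaries were chosen with earlier results of these data known. Named regions are the 10 with the best poorest place, the 5 widest, the 5 farthest from COT, the 3 with the most EM and MM peaks (ties by chromosome and start), and 3 on either side of the COT limit, on chromosomes. The window, run and scaffold positions fall outside that rule. Alternatives were another overlap, a COT margin, the higher-scoring part of lists, equal list length, the end as deposited and chromosomes alone. No genome or annotation of the build was used here, so genes, promoters and motifs were not analysed here and no sequence is printed.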

Additional observations from a re-analysis of the deposited data

How the results depend on the processing

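Of 81 recomputed summaries, 55 stayed within the counting interval of the reported value, or within 1.5 times the reported count, and 26 moved. Some of the 55 could not move, such as shares on chromosomes when scaffolds were left out, so the tally is no measure of robustness. The median distance of 25 bp between EM and MM midpoints was the same under all 9 alternatives, though bins of 50 bp let it change only in coarse steps. The number of regions was 6715 as reported, 5090 to 6715 under 7 alternatives, 3637 with the higher-scoring 50% of each list, and 1076 when the whole COT list was kept beside the higher-scoring 50% of the others. Some regions count among the 3637 only because their COT peak fell in the removed 50% of the COT list. The 3637 are thus not a part of the 6715. For the 3637 and then the 1076 regions, the median width was 450 bp under both settings. A COT peak was within 1 kb of 12.9 and 20.6% of regions. Another region was within 1 kb of 22.3 and 27.0%. The median poorest place was 74.9 and 77.1% of the shortened lists. Those percents are not comparable with the reported 75.7% of the full lists, because the regions kept all stand in the higher-scoring 50% of these. MM was wider in 56.6% with the higher-scoring 50% of each list, and a peptide peak was on 49.04% of maturation regions with the whole COT list. With lists of equal length (49566 peaks) the peptide share was 66.0%, the median width 400 bp, MM wider in 66.4%, a COT peak within 1 kb of 22.4% and another region within 1 kb of 35.7%. Under reciprocal overlap of 50% with an EM peak the peptide share was 47.4% and the median poorest place 72.1%, and with a peptide peak required on an EM peak, chosen after seeing the data, the share was 57.9%. Without a COT peak within 1000 bp the share with a COT peak within 1 kb is 0% by construction, with 22.2% beside another region and 23.6% in the centres. With the end as deposited the width was 349 bp, and 23.02 and 39.5% had a COT peak or another region within 1 kb, by the bin read as 1 bp shorter. Fewer or shorter peaks follow from these constructions, and the cause of the other shifts was not tested. Of the 26 named both-antibody regions, 13 were lost with either higher-scoring list and 0 to 5 under the other alternatives.

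No paired analysis was possible because the lists hold no values per replicate, and for the same reason no replicate was left out. Depth is unknown, so an uncalled peak at COT or with the peptide antibody sets no limit on binding.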
